A study of Mus musculus with 5 samples.

Results

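Dentate granule cells are told from other hippocampal neurons by the genes they express in combination, and 10 such identity genes, some of which (Neurod2 and Calb1) other hippocampal neurons also express, were followed across 5 libraries of mouse dentate gyrus (DG). The 10 genes were taken by their symbols: Prox1, Neurod2, Calb1, Dsp, Npnt, C1ql2, C1ql3, Stxbp6, Tdo2 and Plk5. All 10 were found among the 23420 symbols of the deposited values, and all 10 were among the 13550 genes called expressed, which had a mean value of at least 5 over the 5 libraries. The set holds 2 transcription factors (Prox1 and Neurod2), a calcium buffer (Calb1), a desmosome protein (Dsp), a matrix protein (Npnt), a pair of secreted synapse organizers (C1ql2 and C1ql3), a protein that binds syntaxin (Stxbp6), an enzyme of tryptophan breakdown (Tdo2) and a polo-like kinase (Plk5).

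Granule cells are the principal neurons of the DG. They receive their main input from the entorhinal cortex and send their axons, the mossy fibres, to mossy cells of the hilus and pyramidal neurons of CA3. New granule cells are added in the adult from stem cells of the subgranular zone, and running is known to raise their production. Prox1 is needed for newborn cells to become granule cells, and Calb1 appears as they mature.

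Wild-type CD1 mice, an outbred strain, were males 4 months of age at collection and had lived for 4 weeks in their housing. LD mice lived alone with a running disk that was locked. CE mice lived in groups with a locked disk and tunnels that were moved every day, so they differed from LD mice in company as well as in surroundings. RUN mice lived alone with a disk that turned. RNA of the whole microdissected DG was pooled from 8 mice each for LD, CE and RUN. L-RUN and H-RUN were pools of the 4 RUN mice with the shortest and the 4 with the longest running distance, so the RNA of RUN came from the same mice as that of L-RUN and H-RUN together.

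Each group had 1 library, so no difference between groups could be tested and no p-value is given. Values are regularized log (rlog) values, a log2 scale on which each gene is shrunk towards its own mean over the 5 libraries, so that a difference of 1 would be a doubling and true changes are, if anything, understated. The counts behind them were not used here and the depth of each library is unknown. A gene was called higher or lower at a difference of at least 0.3, the cut-off of the study, which is a 1.23-fold change. The only measure of error was the scatter of RUN around the mixture of L-RUN and H-RUN, which gave a technical SD of 0.022 to 0.047 for a difference between 2 libraries, depending on the level of the gene. It holds no difference between mice. The 4 comparisons with LD share the LD library, and the contrast of H-RUN with L-RUN does not use it.

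The level of these genes was set beside that of markers of other cells in the same libraries. No other tissue was measured, so these levels cannot by themselves identify the tissue. Levels of different genes were compared per kilobase (kb) of the longest annotated transcript, as the mean rlog value over the 5 libraries minus log2 of that length. On this scale the median over the 10 genes was 10.6, against 7.91 over 12765 expressed genes with a known length, 5.89 over 7 markers of CA1 pyramidal neurons and 5.53 over 7 markers of mossy cells. C1ql3 was the highest of the 10 at 11.28 per kb, with 577 genes above it. Stxbp6 (11.02), Neurod2 (10.98), C1ql2 (10.96), Calb1 (10.92) and Plk5 (10.21) followed. Dsp (8.97), Prox1 (8.85) and Npnt (8.57) were lower, and Tdo2 at 7.01 lay below the median of all genes. Another 12 genes enriched in granule cells, Dock10, Trpc6, Lct, Gsg1l, Glis3, Pdzd2, Rfx3, Cyp7b1, Smad3, Sema5a, Spata13 and Bcl11b, had a median of 9.27 per kb and were all expressed. The markers of other cells that a whole DG also holds had medians of 9.76 (astrocyte), 9.26 (interneuron), 9.13 (oligodendrocyte) and 8.64 (CA2 and CA3 neurons) per kb. The astrocyte list thus stood above that of the 12 other granule cell genes and the interneuron list beside it, and all 4 medians were below that of the 10. The highest single marker of each of these 4 lists, from 11.83 (astrocyte) to 12.89 (CA2 and CA3 neurons) per kb, was above C1ql3.

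In the groups with a turning disk, C1ql2 was the gene of the set with the largest rise over LD for both RUN and H-RUN, and in L-RUN it lay past the cut-off together with Plk5, while Prox1 was lower in L-RUN. In CE no identity gene reached the cut-off in either direction. The other 7 genes stayed within 0.3 of LD in all 4 housing groups.

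**Figure D1:**
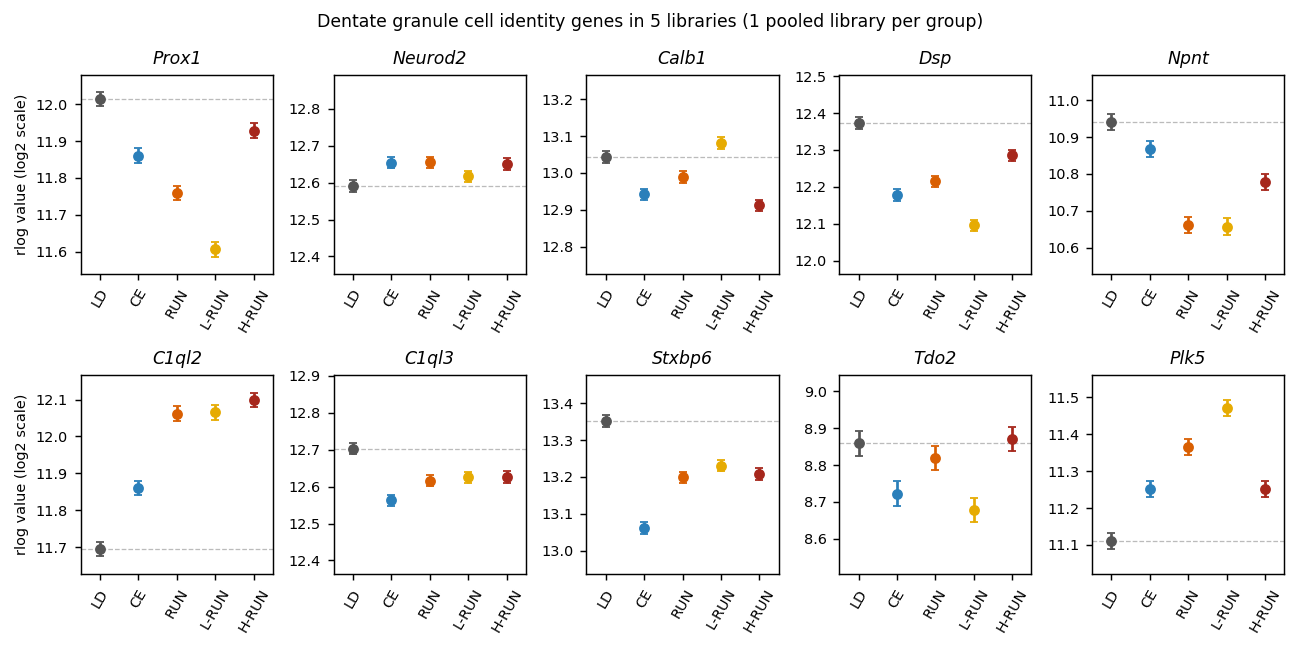
rlog value (log2 scale) of each of the 10 granule cell identity genes in the LD, CE, RUN, L-RUN and H-RUN libraries, 1 panel per gene, all with the same span of the vertical axis but each centred on its own gene, and the dashed line marks the LD value. Each point is 1 library of pooled RNA, and the bars are the technical SD of 1 library, which holds no difference between mice. C1ql2 and Plk5 were lowest in LD, and Prox1 was highest in LD (12.01) and lowest in the low runners (11.61).

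Prox1, the homeobox factor that sets and maintains granule cell fate, lies on chromosome 1 (mm10, 190118035 to 190170714, minus strand). Its rlog value was 12.01 in LD and 11.86 in CE, at 11.76 in RUN, and at 11.61 and 11.93 in the L-RUN and H-RUN pools. LD was the highest and L-RUN the lowest library, and all 4 gaps between neighbours in this order were over 2 technical SD. The difference from LD was -0.41 in L-RUN, a value 24.6% lower and 14.5 times the technical SD of 0.028, and 133 of the 13550 expressed genes had a lower difference. It was -0.25 in RUN, -0.15 in CE and -0.09 in H-RUN. Between H-RUN and L-RUN, the contrast without LD, Prox1 was higher by 0.32 in H-RUN. An antisense gene, Prox1os, overlaps exons of Prox1 on the other strand, the kit does not mark strand, and Prox1os has no value of its own here, so reads of this overlap cannot be told apart. The same holds for opposite-strand genes that overlap exons of Dsp (Gm10129) and C1ql3 (Gm37824 and Gm37811).

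Neurod2, a bHLH factor of differentiated excitatory neurons (chromosome 11, 98325415 to 98329648, minus strand), showed the smallest spread of the set. It was at 12.59 in LD, 12.65 with CE housing, 12.65 in RUN, and 12.62 and 12.65 in the L-RUN and H-RUN pools. LD was lowest, the whole range was 0.063, and no pair of neighbours in the order differed by over 2 technical SD.

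Calb1 encodes calbindin, the calcium buffer that marks mature granule cells (chromosome 4, 15881264 to 15908064, plus strand). It was at 13.04 in LD and 12.94 in CE, at 12.99 in RUN, and at 13.08 and 12.91 in the L-RUN and H-RUN pools. L-RUN and LD were the highest and did not differ by over 2 technical SD, and CE and H-RUN were the lowest, also not apart by this measure. Calb1 was 0.17 lower in H-RUN than in L-RUN, where Prox1 was higher.

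Dsp, desmoplakin, ties desmosomes to intermediate filaments in epithelia and is a marker of granule cells in the hippocampus (chromosome 13, 38151294 to 38198577, plus strand). It was at 12.37 in LD, 12.18 with CE housing, 12.21 in RUN, and 12.10 and 12.29 in the L-RUN and H-RUN pools. LD was again the highest and L-RUN the lowest library, with a difference of -0.28 that did not reach the cut-off. Npnt, nephronectin, is a ligand of integrins in the extracellular matrix (chromosome 3, 132881745 to 132950291, minus strand). It was at 10.94 in LD and 10.87 in CE, at 10.66 in RUN, and at 10.66 and 10.78 in the L-RUN and H-RUN pools. All groups lay below LD, with RUN and L-RUN at -0.28. RUN was 0.059 below the mixture of its own L-RUN and H-RUN pools, the largest such gap of the 10 genes and about the size of its difference from LD in CE of -0.07.

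C1ql2 is secreted at mossy fibre synapses, where it organizes kainate receptors together with neurexins (chromosome 1, 120340582 to 120343174, plus strand). It was at 11.69 in LD, 11.86 with CE housing, 12.06 in RUN, and 12.07 and 12.10 in the L-RUN and H-RUN pools. LD was the lowest, and CE stood between LD and the runners. The L-RUN and H-RUN pools, which are separate mice, did not differ by over 2 technical SD. RUN holds RNA of the same mice as these pools and so adds no separate mice. RUN lay 0.37 above LD, L-RUN 0.37 and H-RUN 0.40, or 29.0%, 29.3% and 32.3% higher. Among all expressed genes 26 had a larger value than C1ql2 for RUN, 49 for L-RUN and 16 for H-RUN. CE was 0.17 above LD, and RUN was 0.20 above CE, which is under the cut-off. Against the mean of LD and CE, C1ql2 was 0.28 higher for RUN, 0.29 for L-RUN and 0.32 for H-RUN, so that H-RUN alone stayed past the cut-off. H-RUN and L-RUN differed by 0.03.

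C1ql3, its close relative at the same synapses (chromosome 2, 13003457 to 13011806, minus strand), did not share this pattern. It was at 12.70 in LD and 12.56 in CE, at 12.62 in RUN, and at 12.62 and 12.63 in the L-RUN and H-RUN pools. LD was the highest library and CE the lowest. The L-RUN and H-RUN pools again did not differ by over 2 technical SD, and RUN, of the same mice, lay near both. The differences of C1ql3 from LD ran from -0.14 in CE to -0.08 in H-RUN.

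Stxbp6, amisyn, binds syntaxin and acts on SNARE complexes of exocytosis (chromosome 12, 44852484 to 45074709, minus strand). It was at 13.35 in LD, 13.06 with CE housing, 13.20 in RUN, and 13.23 and 13.21 in the L-RUN and H-RUN pools. LD was the highest and CE the lowest by over 2 technical SD each, and the runners lay between. The separate pools L-RUN and H-RUN did not differ by this measure, and RUN holds RNA of the same mice. The difference of -0.29 in CE was the largest of the set in that contrast and just under the cut-off, and 42 expressed genes had a lower one.

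Tdo2, tryptophan 2,3-dioxygenase, takes the first step of the kynurenine pathway (chromosome 3, 81957090 to 81976202, minus strand). It was at 8.86 in LD and 8.72 in CE, at 8.82 in RUN, and at 8.68 and 8.87 in the L-RUN and H-RUN pools. H-RUN and LD were highest, L-RUN was lowest at 0.18 below LD, and its technical SD of 0.047 was the widest of the set.

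Plk5, a polo-like kinase that is expressed in brain rather than in dividing cells (chromosome 10, 80356459 to 80365489, plus strand), was at 11.11 in LD, 11.25 with CE housing, 11.37 in RUN, and 11.47 and 11.25 in the L-RUN and H-RUN pools. LD was the lowest and L-RUN the highest library. The difference was 0.36 in L-RUN, 28.3% higher, 0.25 in RUN, and 0.14 in both CE and H-RUN. H-RUN lay 0.22 below L-RUN, the opposite sign to Prox1 in the same contrast.

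The 250 bases before the RefSeq start of C1ql2, Plk5 and Prox1 are shown because these 3 genes were past the cut-off in at least 1 comparison. They are given 5′ to 3′ on the strand of the gene (GRCm38.p6), and the capitals mark the E-box CANNTG, the motif bound by bHLH factors such as Neurod2, which reads as an E-box on both strands.
C1ql2, chr1:120340332-120340581, plus strand: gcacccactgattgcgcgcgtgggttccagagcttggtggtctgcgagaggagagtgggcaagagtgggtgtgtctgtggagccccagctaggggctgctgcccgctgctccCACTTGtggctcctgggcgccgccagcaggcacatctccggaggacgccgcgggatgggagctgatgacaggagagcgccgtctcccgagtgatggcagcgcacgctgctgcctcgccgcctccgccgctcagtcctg
Plk5, chr10:80356209-80356458, plus strand: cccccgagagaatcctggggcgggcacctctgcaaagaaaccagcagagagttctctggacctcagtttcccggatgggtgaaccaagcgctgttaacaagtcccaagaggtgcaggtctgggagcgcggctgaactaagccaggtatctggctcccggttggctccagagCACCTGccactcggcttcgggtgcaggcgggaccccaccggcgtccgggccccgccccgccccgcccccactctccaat
Prox1, chr1:190170828-190171077, minus strand: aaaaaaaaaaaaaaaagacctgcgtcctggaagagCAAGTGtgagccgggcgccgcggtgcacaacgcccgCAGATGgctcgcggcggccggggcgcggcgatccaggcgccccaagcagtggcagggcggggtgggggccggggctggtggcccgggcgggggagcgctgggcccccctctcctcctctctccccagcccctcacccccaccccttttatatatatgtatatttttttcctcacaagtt
C1ql2 held 1 E-box, 138 bases before the start, Plk5 held 1, at 79 bases, and Prox1 held 2, at 215 and 179 bases. An E-box was present in 66.2% of 32851 promoter windows of the same length, so its presence sets none of these apart. None of the 3 held TGACG, the core of the cAMP response element, on either strand, which 17.8% of all windows did. Plk5 held 1 CCAAT (33.8% of windows), and Prox1 held 1 TATAAA (12.4%), both strands searched. Their GC content was 68.8%, 65.6% and 64.8%, against a median of 52.4% over all windows. RefSeq gave windows for 9 of the 10 genes and none for Calb1, and the Prox1 window shown is the more upstream of its entries and lies within the antisense gene Prox1os. The other Prox1 window held no E-box, no TGACG and no TATAAA, with a GC content of 56%, so these traits depend on the start used.

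The comparison of CE with LD asked what company and surroundings did to these genes without running. No identity gene was past the cut-off, against 0.332% of expressed genes higher and 0.266% lower. Of the 10 genes, 7 lay below LD and 3 (C1ql2, Plk5 and Neurod2) above. The median difference was -0.12, with a median over all expressed genes of -0.0018, and the median size was 0.140 against 0.060. Sizes here and in the other contrasts were not matched for level. The 10 genes had mean rlog values from 8.79 to 13.21, whereas expressed genes went down to 5. None of the 12 other granule cell enriched genes was past the cut-off either, with 10 of 12 below LD, a median of -0.16 and the lowest value at Trpc6 (-0.27). CE was the lowest library for 9 of these 12 genes, for 2 of the 10 identity genes (C1ql3 and Stxbp6) and for 21.7% of all expressed genes.

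RUN against LD gave 1 identity gene higher, C1ql2, and none lower, where 0.362% of expressed genes were called higher and 0.952% lower. The median difference of the 10 genes was -0.07, against -0.0013 over all expressed genes, and 7 lay below LD. Of the 12 other granule cell enriched genes 8 lay below LD (median -0.05) and none was past the cut-off. In L-RUN 2 identity genes were called higher, C1ql2 and Plk5, and 1 lower, Prox1, with backgrounds of 0.797% and 2.33%. The median difference was -0.10 and the median size 0.230, against 0.074 over all expressed genes. In H-RUN 1 was called higher, C1ql2, and none lower, with backgrounds of 0.354% and 0.472%, a median of -0.08 and a median size of 0.110 against 0.052. The 12 other genes were again not past the cut-off in L-RUN (9 below LD) or H-RUN (7 below LD).

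H-RUN against L-RUN compared mice sorted afterwards by the distance they chose to run. As the study states, such a difference may follow from running or precede it, and the design cannot tell these apart. Prox1 was the 1 identity gene past the cut-off, higher in H-RUN, with 0.974% of expressed genes called higher and 0.561% lower. Of the 10 genes 7 were above 0 and the median was 0.03. Dsp and Tdo2 followed at 0.19 each, and Plk5 (-0.22) and Calb1 (-0.17) had the lowest values. LD was the highest of the 5 libraries for 5 of the 10 genes (Prox1, Dsp, Npnt, C1ql3 and Stxbp6), against 28.1% of all expressed genes, and the lowest for 3 (Neurod2, C1ql2 and Plk5), against 25.8%.

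**Figure D2:**
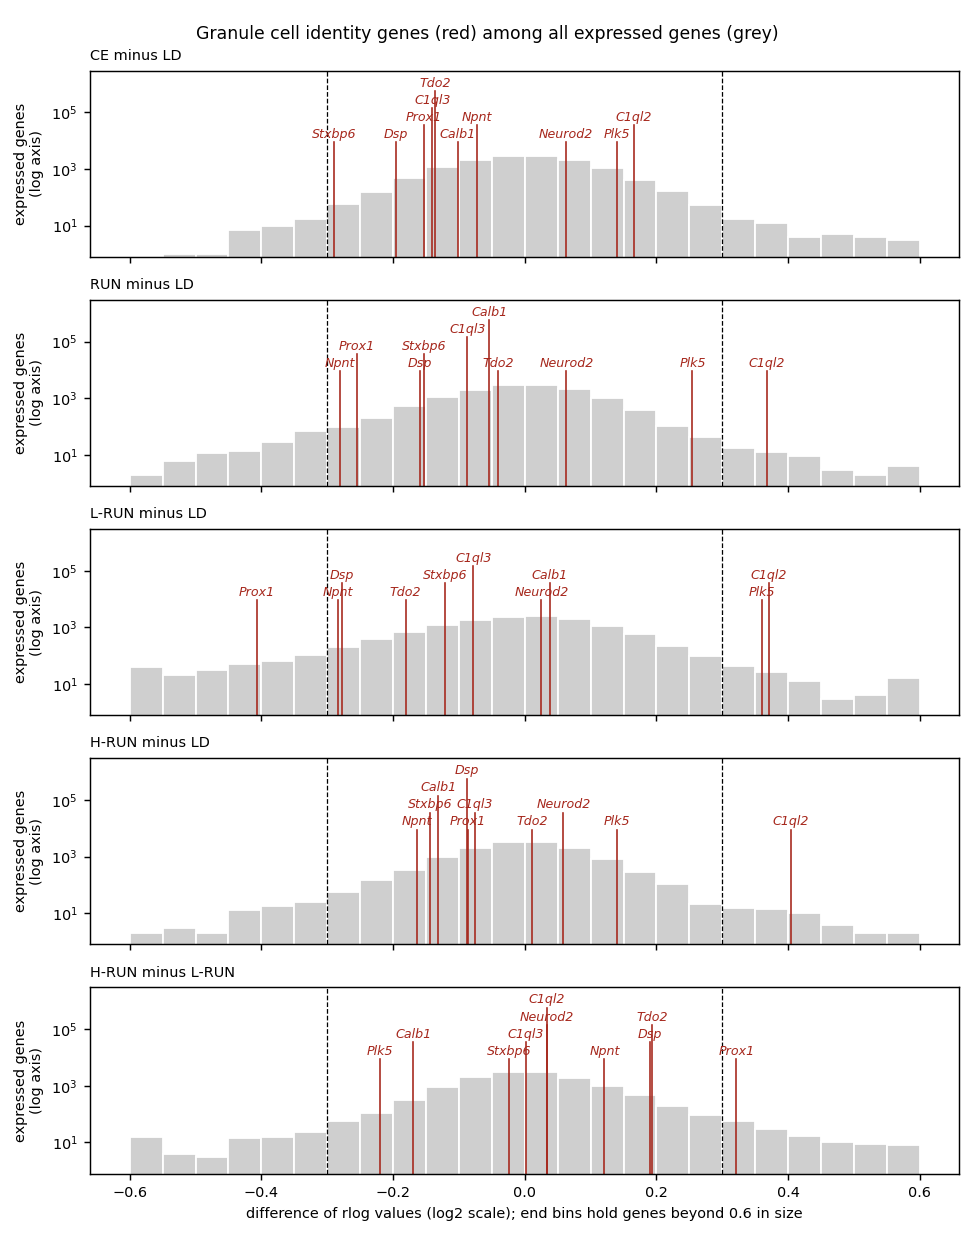
Difference of rlog values (log2 scale) of the 10 identity genes in each of the 5 contrasts, drawn as red lines over the histogram of all 13550 expressed genes (number of genes, log axis), with dashed lines at -0.3 and 0.3; the heights of the red lines carry no value. C1ql2 lay past 0.3 in RUN, L-RUN and H-RUN, Plk5 in L-RUN, and Prox1 below -0.3 in L-RUN and above 0.3 in H-RUN minus L-RUN, while CE held no identity gene past either line.

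The differences of the set moved with transcript length. The longest transcripts of C1ql2 (2000 bases) and Plk5 (2112 bases) were the shortest of the set, and those of Dsp (9592 bases) and Prox1 (7913 bases) the longest. Across the 10 genes the difference in L-RUN had a Pearson r of -0.83 and a Spearman rho of -0.85 with log2 of the length, and in RUN of -0.79 and -0.88. The same direction ran through 12765 expressed genes with a known length, with a Pearson r of -0.48 in L-RUN, -0.47 in RUN, -0.35 with H-RUN and -0.31 with CE, and 0.31 for H-RUN minus L-RUN. These are correlations across genes measured in the same pairs of libraries, and genes are not independent replicates. In L-RUN the shortest 10% of genes had a median of 0.09 and the longest 10% one of -0.12, with C1ql2 and Plk5 above the first and Prox1 below the second. With the trend over all genes removed, Prox1 was at -0.31, C1ql2 at 0.32 and Plk5 at 0.31 in L-RUN, all past the cut-off, C1ql2 stood at 0.33 in RUN and 0.38 in H-RUN, and Prox1 in H-RUN minus L-RUN was at 0.27, under it. Across the 10 genes the differences that remained still had a Pearson r with length of -0.74 in L-RUN and -0.68 in RUN.

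**Figure D3:**
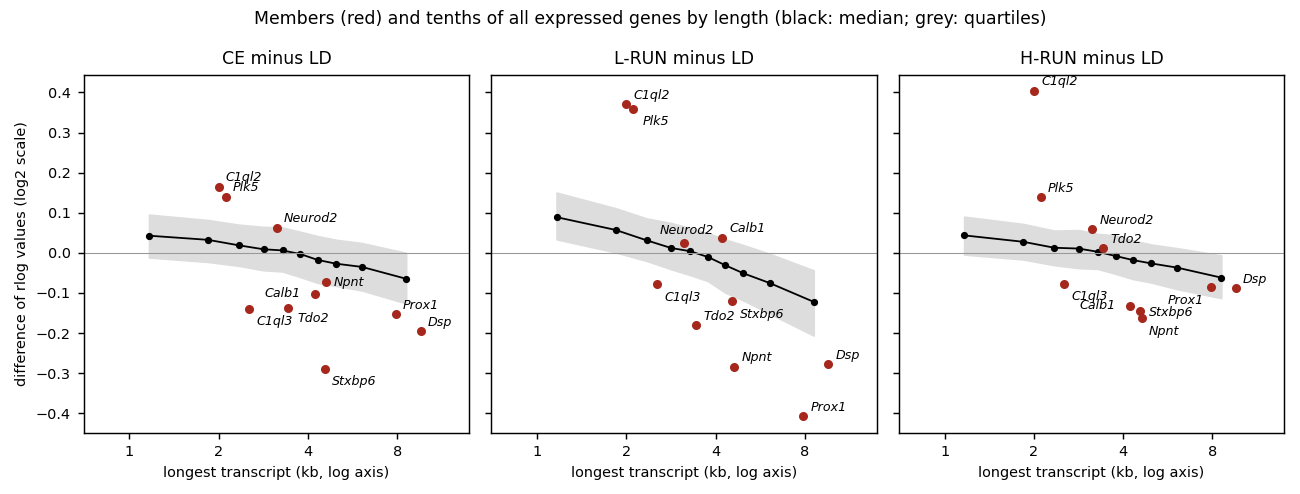
Difference of rlog values (log2 scale) against the length of the longest annotated transcript (kb, log axis) in CE, L-RUN and H-RUN minus LD. Red points are the 10 identity genes, the black line joins the medians of 10 equal bins of all expressed genes by length and the grey band their quartiles. The short genes C1ql2 and Plk5 lay above the line and the long genes Prox1 and Dsp below it in the 3 contrasts.

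Markers of other cells moved in the same libraries. In pooled tissue, fewer cells of a type and less RNA per cell cannot be told apart. All 8 markers of leptomeningeal fibroblasts were expressed, and their summed level (2 to the power of the rlog value, divided by 1000) was 5.56 in LD, 6.71 in CE and 10.9 in RUN, with 16.3 for L-RUN and 5.08 for H-RUN. Ptgds was the highest of the 8 markers in every library and weighed most in these sums. It was at 13.61 in L-RUN, where the next marker, Igf2, was at 10.75. Over the 8 markers the median difference from LD was 0.65 for L-RUN, 0.38 for RUN, 0.20 for CE and -0.04 for H-RUN. Past the cut-off and higher were 4 of 8 in CE, 5 of 8 in RUN and 6 of 8 in L-RUN, up to 1.97 for Ptgds. Over all expressed genes the shares called higher were 0.332%, 0.362% and 0.797%. In H-RUN none was higher and Dcn was lower (-0.52), with shares of 0.354% and 0.472%. The marker lists were chosen with earlier results of these data known, so their counts are a description only. The 7 markers of CA1 pyramidal neurons summed to 5.13, 5.50, 4.49, 4.02 and 4.88 in the same order of libraries. In L-RUN 4 of 7 were lower, against 2.33% of all expressed genes. In H-RUN 4 of 7 were higher than in L-RUN, among them Wfs1 (0.51) and Pou3f1 (0.52), against 0.974%. Fibcd1 of the same list stood at 0.31 in CE but at -0.46 in RUN and -0.52 in H-RUN. The 6 oligodendrocyte markers were all below LD in L-RUN (median -0.20) and summed to 33.2, 30.9, 30.4, 28.5 and 32.3. The summed level of the 10 identity genes was 49.1, 45.7, 47.5, 47.5 and 47.9. L-RUN thus stood apart in these markers in the library where Plk5 and Prox1 were past the cut-off, and their part in those values was not tested. In H-RUN, where C1ql2 was 0.40 above LD, the astrocyte markers summed to 36.6 against 39.4 in LD. Their median difference was only -0.003, over a range from -0.21 (Slc1a3) to 0.13 (Gjb6). The microglia markers summed to 7.84 against 8.59, with a median difference of -0.11. The part of these lists in the value of C1ql2 was not tested either.

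**Figure D4:**
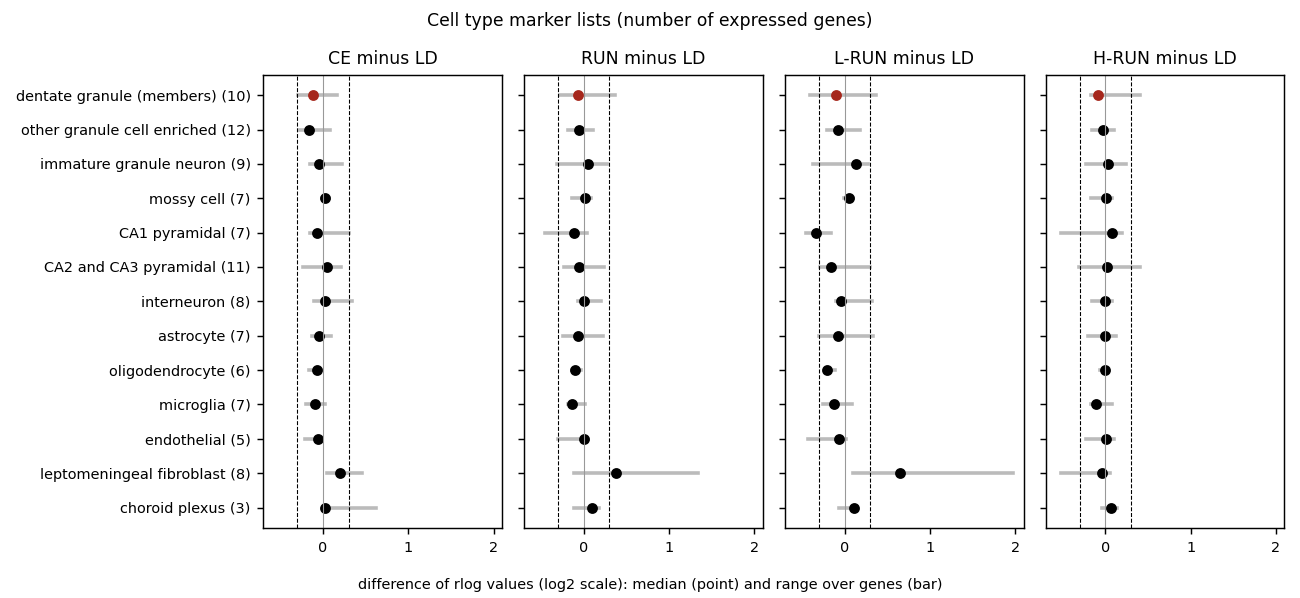
Difference of rlog values from LD (log2 scale) over the expressed genes of each cell type list, as the median (point, red for the 10 identity genes) and the lowest to highest gene (bar), in CE, RUN, L-RUN and H-RUN. Leptomeningeal fibroblast markers had a median of 0.65 in L-RUN and -0.04 in H-RUN. The 10 identity genes and the 12 other granule cell enriched genes had medians between -0.16 and -0.03 in all 4 groups. Immature granule neuron markers had medians from -0.04 in CE to 0.13 in L-RUN.

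Of immature granule neuron markers, 9 of 10 were expressed and Eomes was below the minimum. None was higher past the cut-off in any group, and 1 was lower, Dpysl3, at -0.31 in RUN and -0.37 in L-RUN. Dcx, which marks migrating neuroblasts, was at -0.02 in RUN, Igfbpl1 at 0.28 in RUN and Calb2 at 0.27 in L-RUN. The 7 mossy cell markers had none past the cut-off, nor did the 7 markers of microglia. Among 11 markers of CA2 and CA3 neurons Bok was higher (0.41) and Tspan18 lower (-0.31) in H-RUN. Among 8 interneuron markers Sst was higher in CE (0.34) and L-RUN (0.30) and Npy in L-RUN (0.32). Astrocytes gave Gjb6 (0.34) and Slc1a3 (-0.30) in L-RUN, endothelial cells gave Flt1 (-0.31 in RUN, -0.43 in L-RUN), and of the choroid plexus 3 of 5 markers were expressed, with Ttr higher in CE (0.62).

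Genes that work with the identity genes were mostly within 0.3 of LD. Of C1ql2 and C1ql3, 8 of 9 relatives and synaptic partners were expressed and none was past the cut-off in any contrast. C1ql1, a paralog, ran from 7.86 in LD to 7.97 in CE, C1ql4 was listed at 0 in every library, and the receptor Bai3, Nrxn2 and Nrxn3 and the kainate receptor subunits Grik2, Grik4 and Grik5 stayed within 0.3. The polo-like kinases Plk1, Plk2, Plk3 and Plk4 were all expressed and none was past the cut-off, with Plk2 between 12.10 (L-RUN) and 12.29 (H-RUN). Of 12 genes of the kynurenine pathway downstream of or parallel to Tdo2, 5 were expressed and none was past the cut-off. The 4 nephronectin receptors and relatives, the integrin subunit Itga8 among them, gave none either.

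Single genes were past the cut-off in the lists around Dsp, Neurod2 and Calb1. Of 13 desmosome genes 6 were expressed, and Ppl, periplakin, a plakin like Dsp, was higher in RUN (0.43), L-RUN (0.44) and H-RUN (0.39), where Dsp itself was below LD. Dsg2, a desmosomal cadherin, was lower in H-RUN (-0.36). Of 8 neuronal bHLH factors and E proteins around Neurod2 6 were expressed, and Neurod6, which marks pyramidal neurons, was lower in L-RUN (-0.34) and higher in H-RUN than in L-RUN (0.51). Of 12 EF-hand calcium binding proteins beside Calb1, Hpca, hippocalcin, was higher in H-RUN than in L-RUN (0.31).

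For the 3 genes whose values spanned at least 0.3, the nearest profiles over the 5 libraries were sought among all expressed genes by Euclidean distance, each profile centred on its own mean. Prox1 was nearest to Dnajb14 (distance 0.027), Nt5dc3 (0.029) and Dlgap2 (0.029), where the profile of Prox1 itself had a size of 0.315. C1ql2 was nearest to Kif17 (0.051), Iglon5 (0.053) and Sh3bgrl3 (0.066), with a size of 0.348. Plk5 was nearest to Acot13 (0.030), Lamtor4 (0.058) and Grp (0.061), with a size of 0.271. A profile of 5 pooled libraries has few points, and many genes can be close by this measure.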

How the data were processed

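RNA of the DG was sequenced from 5 pooled libraries, LD, CE, RUN, L-RUN and H-RUN, 1 per group. Per the labels and methods, polyA RNA libraries (TruSeq) were base-called with CASAVA 1.8.2, mapped to mm10 with TopHat2 2.0.10 and counted on RefSeq genes with HTSeq. The authors normalized all libraries together with DESeq2 1.10.1 and deposited regularized log values on the log2 scale. Counts and depth were not used here, so no count model or counting interval was possible.

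Differences between libraries were taken on the deposited values with pandas 2.3.3 and numpy 2.4.6, and called at 0.3. Expressed genes had a mean of at least 5. The technical SD came from the median absolute deviation of RUN around log2 of the linear mean of L-RUN and H-RUN, per decile of level, taking the residual variance as 1.5 times that of a library. It was tested on simulated data. Gene positions and lengths were from GENCODE M21 (GRCm38). The length trend was a lowess curve (statsmodels 0.14.6, fraction 0.3). The members and the 21 gene lists (13 of cell types, 8 of partners) were chosen with earlier results of these data known. All members are named. List genes are named where past 0.3 or direct partners, except that 1 partner list and 1 gene of another are not reported here, and nearest profiles (3 each) for members spanning 0.3. Alternatives were a cut-off of 0.4, a minimum of 7, quantile normalization, median centring, a baseline of LD and CE, and removal of the length trend.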

Additional observations from a re-analysis of the deposited data

How the results depend on the processing

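With 1 library per group, no replicate could be left out. No paired analysis was possible because each group has 1 library and no result comes from a test. No alternative reversed a called difference. A cut-off of 0.4 left 0 identity genes in RUN, 1 in L-RUN (Prox1) and 0 in H-RUN minus L-RUN, by construction. Against the average of LD and CE the count was 0 for RUN and 1 (Prox1) for L-RUN, and the medians of the 10 differences were -0.0055 for RUN, -0.0072 for L-RUN and 0.0052 for H-RUN, the last with its sign turned. Quantile normalization gave a median of -0.0611 in L-RUN. In H-RUN minus L-RUN it gave 0 genes and a median of -0.0007, with its sign turned, a shift within the technical error. Removing the length trend gave a median of -0.0319 in H-RUN and 0 genes in H-RUN minus L-RUN. In each of these the cause was not tested. With lengths from the union of exons the median level per kb was 10.2929, against 10.5636. A minimum of 7, centring on the median and another form of the mixture left all counts and medians of the 10 genes as they were within the technical error.

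A pair of alternatives was chosen after seeing the data. Relative to the median of the 12 other granule cell enriched genes, C1ql2 and Plk5 were past the cut-off in CE (count 2) and in RUN (count 2), and none was in H-RUN minus L-RUN (0). The medians became 0.0421 for CE and -0.0229 for H-RUN minus L-RUN, both with their sign turned, and -0.0173 for RUN and -0.0202 for L-RUN. RUN against CE in place of LD gave 0 genes past the cut-off and a median of 0.0504. The call of C1ql2 in H-RUN held under every alternative run for that contrast. CE in place of LD was not run for H-RUN. C1ql2 was at 12.10 in H-RUN and 11.86 in CE, a gap under the cut-off. Without replicates or depth, none of these values carries the spread between mice.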
